A study of Bos taurus with 18 samples.

Results

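Solute carriers are the membrane proteins that move small molecules such as sugars, amino acids, metals, vitamins and nucleosides across the plasma membrane and the membranes of organelles. They are named by family (SLC, a family number, the letter A and a member number), and the members of a family mostly carry related substrates. In the blastocyst the outer epithelium, the trophectoderm, takes up nutrients through such carriers, releases lactate, and uses carriers and ion pumps in the transport that fills the cavity. The features described here are the microarray probes whose gene symbol begins with SLC followed by a digit and whose mean over all 18 arrays was 9 log2 units or more in the authors' deposited table. There were 108 such features, of 93 genes, among 415 solute carrier features of 307 genes and 43794 features on the array. Among the 108, 3 features are of proteins named after a carrier (SLC4A1AP, SLC7A6OS and SLC9A3R1) and are counted with the rest. All 108 were selected on their measured brightness over all arrays, so that brightness is not a result. Differences between the groups were not used in choosing them, although a feature that is bright in some groups may have reached the level through those groups.

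The arrays measured RNA of bovine blastocysts produced entirely in vitro and grouped by when their fluid-filled cavity, the blastocoel, appeared. In 3 groups the embryos were collected as the cavity formed, at day 6 (day6), day 7 (day7) or day 8 (day8) after fertilisation. Those of the other 3 groups were kept in culture longer after the cavity had formed: day-6 blastocysts for 1 more day (day6+1) or 2 more days (day6+2), and day-7 blastocysts for 1 more day (day7+1). Each group had 3 arrays. All are labelled as produced in vitro, with no other treatment or genetic change named. For day6, day6+2 and day8 the labels add that the oocytes were matured in vitro, that the ovaries came from a slaughterhouse, that the semen of 1 bull was used and that the embryos were grown on VERO cells, a monkey kidney line; no growth conditions are given with the labels of the other 3 groups. The labels call the arrays biological replicates but do not say whether they came from separate cultures, so a p-value here measures only the spread between these arrays. The RNA was amplified before labelling. Whole embryos were measured, so fewer cells of a type and less RNA per cell cannot be told apart.

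Raw median signals were 157 to 302 per array over background medians of 14 to 21, and 71.6% to 81.8% of features were above the negative controls. The number of arrays limits the precision. All 10 trophectoderm markers were above the negative controls on every array, as were 4 of 5 measured epiblast and 5 of 6 measured hypoblast markers. The epiblast and hypoblast become the embryo proper and the yolk sac. For cumulus cells, which surround the oocyte, 3 of 4 measured genes of a list of 8 were above the negative controls on all arrays. For fibroblast or kidney epithelial cells it was 5 of 7 measured genes of a list of 9. The arrays came from 5 slides: day6 and day6+2 shared slide 1, day8 and day7+1 slide 2, and day6+1 and day7 slide 3 for replicates 1 and 2. Replicates 3 lay on slides 4 and 5. A set of 5 arrays (replicate 1 of day6+1, replicate 1 of day7 and all of day8) stood apart from the other 13 on the first principal component, which held 18.2% of the variance.

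All 108 features passed the filter on dim signals, as did all 10809 features of the array with a mean of 9 log2 units or more. The 108 were above the negative controls on all 18 arrays. Their values below are log2 signals after background correction and quantile normalization, so that a difference of 1 is a 2-fold change, and a feature is said to have risen or fallen where limma's Benjamini-Hochberg adjusted p over all 40086 features kept was under 0.05. Brightness depends on the probe as well as on the RNA, so a difference in level between features is not a difference in RNA. The span between the lowest and highest array ran from 0.3 to 5.04 log2 units over the features, with a median of 1.24. Just inside the level of 9 lay SLC2A8 at 9.057, SLC26A11 at 9.052, SLC39A10 at 9.051, SLC28A3 at 9.022 and SLC25A38 at 9.005. Just outside it lay SLC45A3 at 8.99, SLC35E4 at 8.971, SLC39A2 at 8.955, SLC39A3 at 8.952 and SLC16A3 at 8.939.

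Over the 6 groups 9 features, of 9 genes, varied by limma's F test, which is 8.33% of the 108. Over all features kept the share was 2.14%, and over the 10701 other features of the same brightness it was 5.72%. Without day6 replicate 2, 4 of the 108 passed, and over the leave-outs of 1 array the count ran from 4 to 13. The smallest adjusted p were those of the vitamin C carrier SLC23A1 (1.5e-04), SLC44A4 of the choline carrier family (0.00148), the glutamate carrier SLC1A3 (0.00339) and the magnesium carrier SLC41A2 (0.00384). SLC35F5 feature 2 followed at 0.0137, the amino acid carrier SLC36A4 at 0.014, the bile acid carrier SLC10A1 (feature 2) at 0.0271, the zinc carrier SLC30A2 at 0.0369 and the iron carrier SLC11A2 at 0.0401. Counting the F test and the 8 pairwise comparisons together, 17 features of 15 genes passed somewhere and 91 features passed nowhere.

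**Figure D1:**
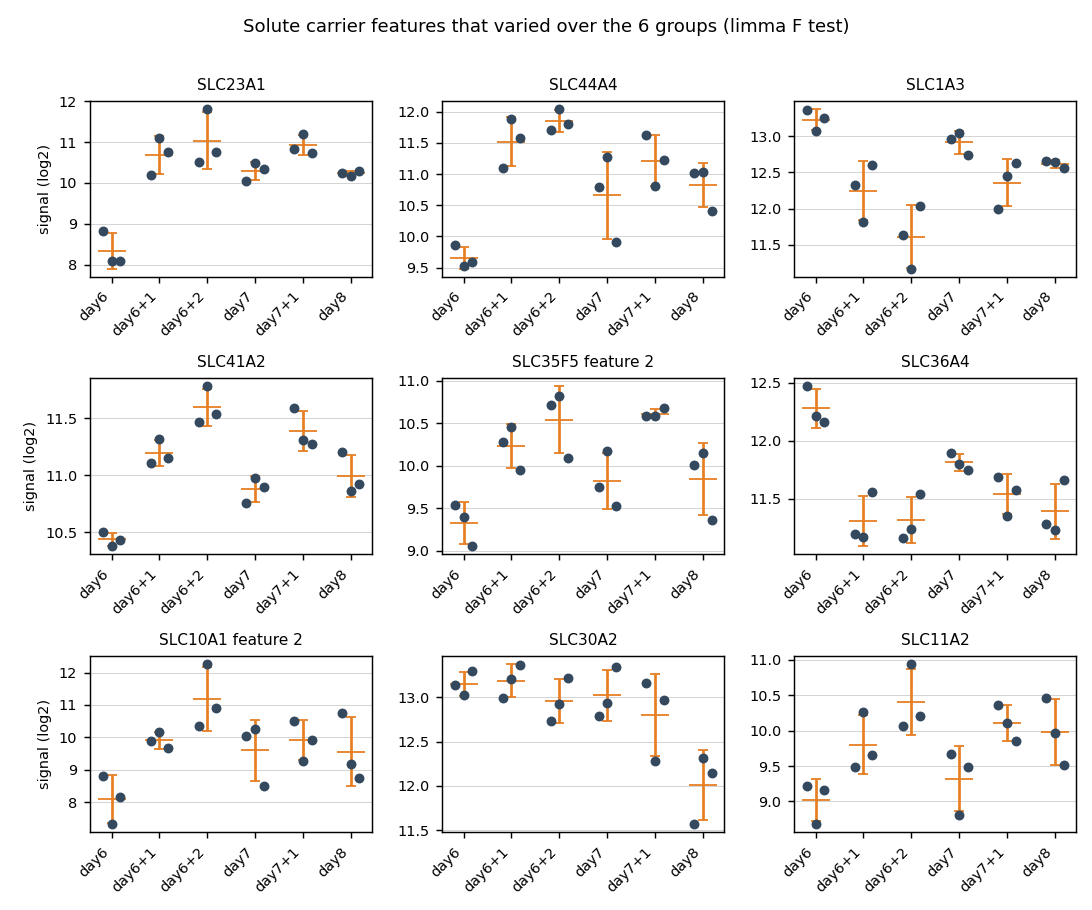
Signals (log2, vertical axes) of the 9 solute carrier features that passed the F test, on each of the 3 arrays (points, replicates 1 to 3 from left to right) of the 6 groups; orange bars are the group mean and SD. For SLC23A1, SLC44A4 and SLC41A2 every other array was above all 3 day6 arrays, for SLC1A3 and SLC36A4 every other array was below them, and SLC30A2 was low in day8.

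The count of features among the 108 that changed was highest where day-6 blastocysts had been cultured for 2 more days. In day6+2 against day6, 16 features passed, 13 up and 3 down, which is 14.8% of the 108. Over all features kept 3.43% passed, over other features of the same brightness 8.81%, and among the 281 dimmer solute carrier features 8 passed. The median difference of the 108 was 0.06 log2 units, against -0.02 over all features. With 1 extra day, in day6+1 against day6, 5 features passed, 3 up and 2 down (4.63%), against 1.21% of all features and 3.43% of those of the same brightness. Centring each array on its median in place of quantile normalization gave 15 up and 1 down for 2 days, and 7 up and 0 down for 1 day. Under scaling to the 75th percentile the median difference of all features in day6+1 against day6 was -0.13, in place of -0.02. Without day6+2 replicate 2, 10 features passed for 2 days. For 1 day, 2 passed without day6 replicate 1 or without day6+1 replicate 2, and 3 without day6 replicate 2 or without day6 replicate 3. With slide as a block 1 passed for 1 day.

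**Figure D2:**
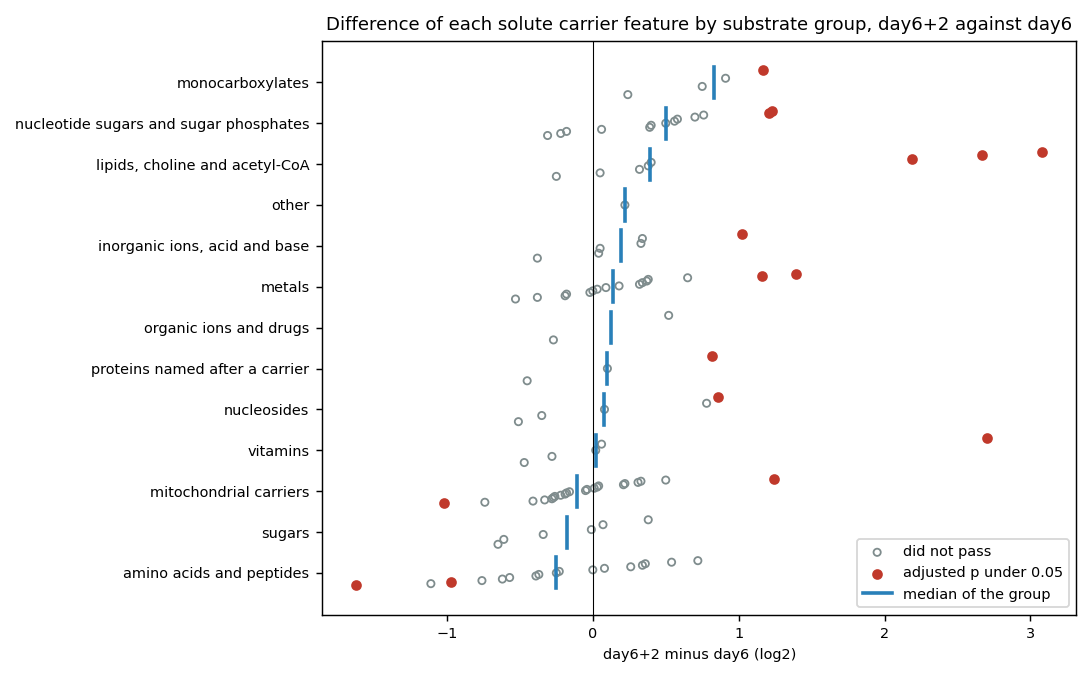
Difference between day6+2 and day6 (log2, horizontal axis) for each of the 108 solute carrier features, by substrate group; red points passed at an adjusted p under 0.05, open points did not, and the blue bar is the median of the group. The 2 amino acid carriers and 1 mitochondrial carrier that fell lie on the left, and the features that rose by over 2 log2 units belong to SLC23A1, SLC10A1 and SLC44A4.

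Among the vitamin carriers (5 features of 4 genes), 1 rose and 4 did not pass. SLC23A1 (probe EMBV3_00793) is a sodium-dependent carrier of ascorbate, vitamin C, in the apical membrane of epithelia. It read 8.83, 8.08 and 8.09 on the day6 arrays, 10.20, 11.11 and 10.75 in day6+1, and 10.52, 11.82 and 10.76 in day6+2. In day7 it read 10.04, 10.49 and 10.35, in day7+1 10.84, 11.20 and 10.73, and in day8 10.25, 10.16 and 10.29. Each of the 3 day6 arrays was thus below every array of the other 5 groups, which overlapped one another in part. SLC23A1 rose 5.12-fold in day6+1 (2.36 ± 0.29 log2 units, SE, adjusted p = 1.55e-04) and 6.50-fold in day6+2 (2.70 ± 0.29, adjusted p = 1.12e-05). It also rose in day7 against day6 (1.96 ± 0.29, adjusted p = 0.00361) and in day8 against day6 (1.90 ± 0.29, adjusted p = 0.00233). A second feature of the gene, with a mean of 8.16 and so below the level, differed by -0.22 ± 0.27 in day6+2 (adjusted p = 0.85). The other vitamin features were those of the thiamine carrier SLC19A3, of SLC5A6, which carries biotin and pantothenate, and of SLC23A3, whose substrate is not vitamin C.

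The group of carriers of lipids, choline and acetyl-CoA (8 features of 5 genes) was formed by SLC family. It included 3 features that rose in day6+2, those of SLC44A4 and SLC10A1, and its median difference was 0.39. SLC44A4 (probe EMBV3_25702) belongs to the choline transporter-like family and carries thiamine pyrophosphate in human cells. It read 9.86, 9.53 and 9.59 in day6, 11.10, 11.88 and 11.57 in day6+1, and 11.71, 12.05 and 11.80 in day6+2. Its day7 arrays gave 10.79, 11.28 and 9.91, in day7+1 11.62, 10.81 and 11.22, and in day8 11.02, 11.03 and 10.41. All 3 day6 arrays were below all others, with day7 replicate 3 nearest to them. It rose by 1.86 ± 0.29 in day6+1 (adjusted p = 0.00158), by 2.19 ± 0.29 in day6+2 (adjusted p = 8.15e-05) and by 1.16 ± 0.29 in day8 (adjusted p = 0.0444), each against day6. The call in day8 was lost with slide as a fixed or random block and on leaving out any of 5 of the 6 arrays, all but day8 replicate 3.

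SLC10A1 takes up bile acids with sodium in liver cells, and 2 of its features were bright enough to be described. Feature 1 (EMBV3_25538) read 8.99, 8.24 and 7.62 in day6 and 10.23, 12.33 and 10.30 in day6+2, with 9.91, 10.83 and 9.49 in day6+1. Feature 2 (EMBV3_35962) read 8.80, 7.33 and 8.16 in day6 and 10.36, 12.26 and 10.92 in day6+2, with 9.89, 10.18 and 9.67 in day6+1. Both features put replicate 2 of day6+2 highest, and neither overlapped between day6 and day6+2. They rose 6.35-fold (2.67 ± 0.50, adjusted p = 0.00236) and 8.47-fold (3.08 ± 0.52, adjusted p = 9.55e-04) in day6+2. Neither passed in day6+1 (feature 1 1.79 ± 0.50, adjusted p = 0.088, and feature 2 1.82 ± 0.52, adjusted p = 0.0967). In day7, day7+1 and day8 feature 2 lay between 8.51 and 10.76, and in day7 and day8 it overlapped day6. A dimmer SLC10A1 feature differed by 0.68 ± 0.29 (adjusted p = 0.275) in day6+2.

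Of the metal carriers (16 features of 15 genes), 2 rose in day6+2 and 14 did not pass, with a median difference of 0.13. SLC41A2 (probe EMBV3_42058) carries magnesium. It read 10.50, 10.38 and 10.43 in day6, 11.11, 11.32 and 11.15 in day6+1, and 11.47, 11.78 and 11.54 in day6+2. The day7 arrays read 10.76, 10.98 and 10.90, in day7+1 11.59, 11.31 and 11.27, and in day8 11.20, 10.86 and 10.92. The day6 arrays were again the lowest, and day6, day6+1 and day6+2 did not overlap one another. SLC41A2 rose by 0.75 ± 0.17 in day6+1 (adjusted p = 0.0255) and by 1.16 ± 0.17 in day6+2 (adjusted p = 2.39e-04). In day6+1 its call was lost whichever of the 6 arrays was left out.

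SLC11A2 (probe EMBV3_07841) imports ferrous iron and other divalent metals. It read 9.22, 8.68 and 9.16 in day6 and 10.07, 10.94 and 10.20 in day6+2, with no overlap. It rose by 1.39 ± 0.28 (adjusted p = 0.0054), a call lost without day6 replicate 2 or day6+2 replicate 2. Both dimmer features of the gene rose as well, by 1.40 ± 0.31 (adjusted p = 0.00973) and 1.31 ± 0.25 (adjusted p = 0.00316). SLC30A2 (EMBV3_40498), which moves zinc into vesicles, differed in another comparison. It read 13.14, 13.02 and 13.29 in day6, 12.99, 13.21 and 13.36 in day6+1, and 12.73, 12.92 and 13.22 in day6+2. Values in day7 were 12.79, 12.93 and 13.34, in day7+1 13.16, 12.28 and 12.97, and in day8 11.57, 12.32 and 12.15. The day8 arrays were below all others but day7+1 replicate 2, and the feature fell by 1.13 ± 0.24 in day8 against day6 (adjusted p = 0.0192). The call was lost with median centring and without any 1 of the day6 arrays or day8 replicate 1.

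The copper importer SLC31A1 read 15.68, 15.69 and 15.72 in day6, 15.54, 15.55 and 15.41 in day6+1, and 15.29, 15.27 and 15.38 in day6+2. On the day7 arrays it read 15.60, 15.55 and 15.62, in day7+1 15.37, 15.63 and 15.57, and in day8 15.46, 15.65 and 15.45. The 3 groups that formed a cavity at day 6 did not overlap, but the difference of -0.38 ± 0.15 between day6+2 and day6 did not pass (adjusted p = 0.244). Its paralogue SLC31A2 differed by 0.65 ± 0.24 in day6+2 (adjusted p = 0.179) and by 0.90 ± 0.24 in day8 (adjusted p = 0.0576), both against day6. The zinc importer SLC39A8 read 11.16, 11.93 and 11.15 in day6, 10.38, 11.05 and 11.16 in day6+1, and 10.66, 11.58 and 11.46 in day6+2. In day7 it read 11.13, 11.87 and 10.89, in day7+1 11.06, 11.17 and 11.16, and in day8 10.74, 11.29 and 10.41. Its groups overlapped and its F test gave an adjusted p of 0.783.

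Among the amino acid and peptide carriers (17 features of 16 genes) no feature rose and 2 fell in day6+2, with a median difference of -0.25. SLC1A3 (probe EMBV3_14869) takes up glutamate and aspartate with sodium and is best known from glia. It read 13.37, 13.07 and 13.26 in day6, 12.33, 11.81 and 12.61 in day6+1, and 11.64, 11.17 and 12.03 in day6+2. Its day7 arrays gave 12.97, 13.05 and 12.74, in day7+1 12.00, 12.45 and 12.63, and in day8 12.66, 12.64 and 12.56. Its day6 arrays were above all others, and its lowest group mean was that of day6+2. SLC1A3 fell by 0.98 ± 0.23 in day6+1 (adjusted p = 0.0343) and by 1.62 ± 0.23 in day6+2 (adjusted p = 1.98e-04). The call in day6+1 was lost on leaving out any of 5 of the 6 arrays, all but day6+1 replicate 3. Dimmer features of the gene differed by -0.42 ± 0.27 and -0.07 ± 0.19 in day6+2 and did not pass.

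SLC36A4 (probe EMBV3_35154) carries proline and tryptophan and is studied as an amino acid sensor at lysosomes. It read 12.47, 12.21 and 12.16 in day6, 11.19, 11.17 and 11.56 in day6+1, and 11.16, 11.24 and 11.54 in day6+2. The day7 arrays read 11.89, 11.80 and 11.75, in day7+1 11.69, 11.35 and 11.57, and in day8 11.28, 11.23 and 11.66. The day6 arrays were above every other array. It fell by 0.98 ± 0.18 in day6+1 (adjusted p = 0.00808), by 0.97 ± 0.18 in day6+2 (adjusted p = 0.0028) and by 0.89 ± 0.18 in day8 (adjusted p = 0.0185). With each array centred on its median none of these 3 differences passed, and the adjusted p in day6+2 was 0.0556. The call in day6+1 was also lost without day6 replicate 1 or day6+1 replicate 2, and that in day8 without replicate 1 or 2 of either group.

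SLC7A5 and SLC3A2 form the exchanger that brings leucine and other large neutral amino acids into cells. SLC7A5 read 15.00, 15.09 and 15.68 in day6, 15.44, 14.33 and 15.00 in day6+1, and 14.32, 13.43 and 14.67 in day6+2. Values in day7 were 14.44, 14.57 and 15.33, in day7+1 14.30, 14.77 and 14.79, and in day8 14.03, 14.90 and 15.28. Day6 and day6+2 did not overlap, but the difference of -1.11 ± 0.34 did not pass (adjusted p = 0.0852). SLC3A2 read 9.54, 9.37 and 9.95 in day6, 9.93, 9.11 and 10.46 in day6+1, 9.58, 9.09 and 9.44 in day6+2, 8.94, 9.42 and 9.63 in day7, 9.93, 9.05 and 9.38 in day7+1, and 9.07, 9.42 and 9.76 in day8. Its groups overlapped, with an F test adjusted p of 0.914.

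The glutamine carrier SLC1A5 read 12.17, 11.91 and 12.30 in day6, 11.67, 11.12 and 11.75 in day6+1, and 11.69, 11.75 and 11.77 in day6+2. On the day7 arrays it read 11.57, 11.76 and 11.82, in day7+1 11.96, 11.78 and 11.78, and in day8 11.55, 11.75 and 11.96. The difference between day6+2 and day6 was -0.39 ± 0.19 (adjusted p = 0.388), although those groups did not overlap. SLC38A2, which takes up small neutral amino acids, read 13.08, 12.82 and 12.78 in day6, 13.06, 12.68 and 12.87 in day6+1, and 12.70, 12.78 and 12.50 in day6+2. In day7 it read 12.52, 12.73 and 12.36, in day7+1 12.64, 12.75 and 12.59, and in day8 13.01, 12.65 and 12.34. Its 6 groups overlapped in part, and the F test gave an adjusted p of 0.852.

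None of the 6 sugar carrier features, of 5 genes, passed in any comparison, and their median difference in day6+2 against day6 was -0.17. SLC2A3 is a high-affinity glucose carrier. It read 15.73, 15.61 and 15.67 in day6, 15.86, 15.77 and 15.71 in day6+1, and 15.83, 15.65 and 15.75 in day6+2. Its day7 arrays gave 15.66, 15.71 and 15.61, in day7+1 15.78, 15.56 and 15.73, and in day8 15.61, 15.58 and 15.57. All 18 arrays lay within 0.3 log2 units, the smallest span of the 108, and day6+2 differed from day6 by 0.07 ± 0.15 (adjusted p = 0.933). Its highest raw spot read 59546, and no spot of the 108 features was at the scanner's limit of 65535. So near the top of the scanner range small differences may not be detectable, and the narrow span does not show that the RNA was constant.

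The glucose carrier SLC2A1 had 2 features. Feature 1 read 13.43, 13.21 and 12.80 in day6, 12.60, 13.38 and 13.35 in day6+1, and 13.03, 12.40 and 12.99 in day6+2. The day7 arrays read 12.79, 13.89 and 13.05, in day7+1 12.72, 13.02 and 13.03, and in day8 12.96, 13.26 and 12.60. Feature 2 ranged from 7.67 to 9.71, and both had overlapping groups with F test adjusted p of 0.936 and 0.957. SLC2A8, a glucose carrier found on membranes inside the cell, read 9.28, 9.52 and 9.14 in day6, 8.27, 9.01 and 9.26 in day6+1, and 8.68, 8.38 and 8.92 in day6+2. Values in day7 were 9.17, 9.38 and 9.43, in day7+1 8.39, 9.32 and 8.90, and in day8 8.00, 8.80 and 9.34. Day6 and day6+2 did not overlap, with a difference of -0.65 ± 0.29 that did not pass (adjusted p = 0.332).

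The 4 monocarboxylate features, of 3 genes, were all higher in day6+2 than in day6, with a median difference of 0.83, and 1 of them passed. SLC16A1 carries lactate and pyruvate together with a proton. Its feature 2 (EMBV3_09381) read 10.48, 10.89 and 10.43 in day6, 11.22, 11.14 and 10.99 in day6+1, and 12.24, 11.86 and 11.21 in day6+2. On the day7 arrays it read 11.52, 11.44 and 10.94, in day7+1 11.51, 11.22 and 11.23, and in day8 11.39, 11.24 and 10.76. Day6 was below every group but day8, which it overlapped, and the feature rose by 1.17 ± 0.24 in day6+2 (adjusted p = 0.00506). Within slide 1 the difference was 1.36, and within slide 4, which held 1 array of each group, it was 0.79.

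SLC16A1 feature 1 read 13.86, 13.90 and 13.37 in day6, 14.40, 14.36 and 14.15 in day6+1, and 14.60, 14.56 and 14.21 in day6+2. In day7 it read 14.07, 14.38 and 13.76, in day7+1 14.49, 14.19 and 14.30, and in day8 14.53, 14.26 and 13.85. Its day6+2 arrays were all above day6, with a difference of 0.75 ± 0.21 that did not pass (adjusted p = 0.0548). A dimmer feature differed by -0.05 ± 0.18. SLC16A13 differed by 0.91 ± 0.27 in day6+2 (adjusted p = 0.0724). SLC16A11, a monocarboxylate carrier of liver, read 10.01, 10.03 and 9.93 in day6, 10.04, 10.23 and 10.70 in day6+1, and 10.42, 10.08 and 10.18 in day6+2. Its day7 arrays gave 10.68, 10.85 and 10.71, in day7+1 10.75, 10.91 and 10.56, and in day8 10, 10.57 and 10.51. The day7 arrays were above all day6 arrays, but the difference of 0.75 ± 0.20 did not pass (adjusted p = 0.12).

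**Figure D3:**
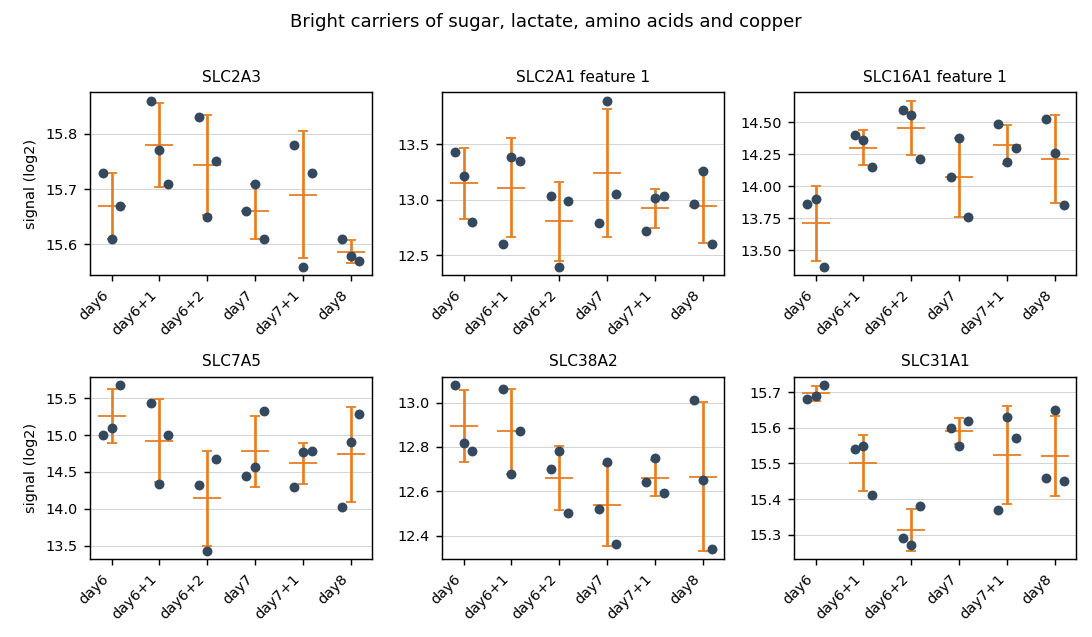
Signals (log2, vertical axes) of 6 bright carriers of glucose (SLC2A3, SLC2A1 feature 1), lactate (SLC16A1 feature 1), amino acids (SLC7A5, SLC38A2) and copper (SLC31A1) on each of the 3 arrays of the 6 groups, with mean and SD in orange; each panel has its own scale. None of the 6 passed in any comparison, and SLC2A3, near the top of the scanner range, stayed within 0.3 log2 units.

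Mitochondrial carriers of the SLC25 family formed the largest group (22 features of 18 genes), of which 1 rose and 1 fell in day6+2, with a median difference of -0.11. SLC25A5 exchanges ADP and ATP across the inner mitochondrial membrane, and 2 of its features are described. Feature 2 (EMBV3_26357) read 15.37, 15.70 and 15.28 in day6, 14.65, 14.78 and 15.12 in day6+1, and 14.72, 14.07 and 14.52 in day6+2. The day7 arrays read 15.32, 14.60 and 15.21, in day7+1 14.31, 15.08 and 14.89, and in day8 14.84, 15.37 and 15.12. Day6 and day6+2 did not overlap, and it fell by 1.02 ± 0.24 (adjusted p = 0.017). It did not pass with each array centred on its median, nor without day6 replicate 2 or day6+2 replicate 2. Feature 1 read 14.89, 14.98 and 15.21 in day6, 14.58, 14.42 and 14.88 in day6+1, and 14.52, 13.88 and 14.46 in day6+2. Values in day7 were 14.81, 14.30 and 15.05, in day7+1 13.85, 14.38 and 14.91, and in day8 14.50, 15.06 and 14.94. It too was lower on each day6+2 array than on any day6 array, but did not pass (-0.74 ± 0.26, adjusted p = 0.144). The close paralogues SLC25A4 and SLC25A6 were also among the 108 and did not pass, and whether the probes tell these genes apart was not tested. SLC25A21, which exchanges dicarboxylates of lysine and tryptophan breakdown, rose by 1.24 ± 0.27 in day6+2 (adjusted p = 0.00943), from 9.07, 8.62 and 8.81 in day6 to 9.85, 10.70 and 9.68, and did not pass without day6 replicate 2 or day6+2 replicate 2. Its dimmer features differed by 0.87 ± 0.26 (adjusted p = 0.071) and 0.35 ± 0.30 (adjusted p = 0.742).

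Of the carriers of nucleotide sugars and sugar phosphates (13 features of 11 genes), which supply the Golgi apparatus and endoplasmic reticulum, 2 features rose in day6+2 and 11 did not pass. The group's median difference was 0.50. Both that rose belong to SLC35F5, a member of this family whose substrate is not settled. Feature 2 (EMBV3_25529) read 9.54, 9.39 and 9.05 in day6, 10.28, 10.46 and 9.95 in day6+1, and 10.71, 10.82 and 10.09 in day6+2. On the day7 arrays it read 9.75, 10.17 and 9.52, in day7+1 10.58, 10.58 and 10.68, and in day8 10.01, 10.15 and 9.36. Day6 was below day6+1, day6+2 and day7+1 and overlapped day7 and day8. The rise in day6+2 was 1.21 ± 0.24 (adjusted p = 0.00354), and feature 1 rose by 1.23 ± 0.26 (adjusted p = 0.00696), which did not pass without day6 replicate 3 or day6+2 replicate 2.

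In the nucleoside group (5 features of 4 genes) 1 feature rose. SLC29A2 moves nucleosides and nucleobases down their gradient, and its feature 2 rose by 0.86 ± 0.24 in day6+2 (adjusted p = 0.0443), from 11.85, 10.92 and 11.96 to 12.48, 12.27 and 12.55. Its feature 1 differed by -0.35 ± 0.21 (adjusted p = 0.534), and the rise of feature 2 no longer passed without day6 replicate 2 or without any 1 of the day6+2 arrays. Among carriers of inorganic ions, acid and base (6 features of 6 genes), SLC24A6, whose current symbol is SLC8B1, rose by 1.02 ± 0.22 (adjusted p = 0.00749). It exchanges sodium for calcium across the inner mitochondrial membrane and read 10.53, 10.53 and 10.65 in day6 against 11.39, 11.87 and 11.50 in day6+2, and did not pass without day6+2 replicate 2. SLC9A3R1 (NHERF1) is not a carrier but a scaffold protein of apical membranes named after the exchanger it binds. It rose by 0.82 ± 0.21 (adjusted p = 0.0279), from 11.77, 11.80 and 12.24 to 12.91, 12.54 and 12.81, and no longer passed without day6 replicate 1 or 2 or without day6+2 replicate 1 or 3. Neither of the 2 features for organic ions, nor the 1 creatine carrier feature (SLC6A8), nor the other 2 proteins named after a carrier passed in any comparison.

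**Figure D4:**
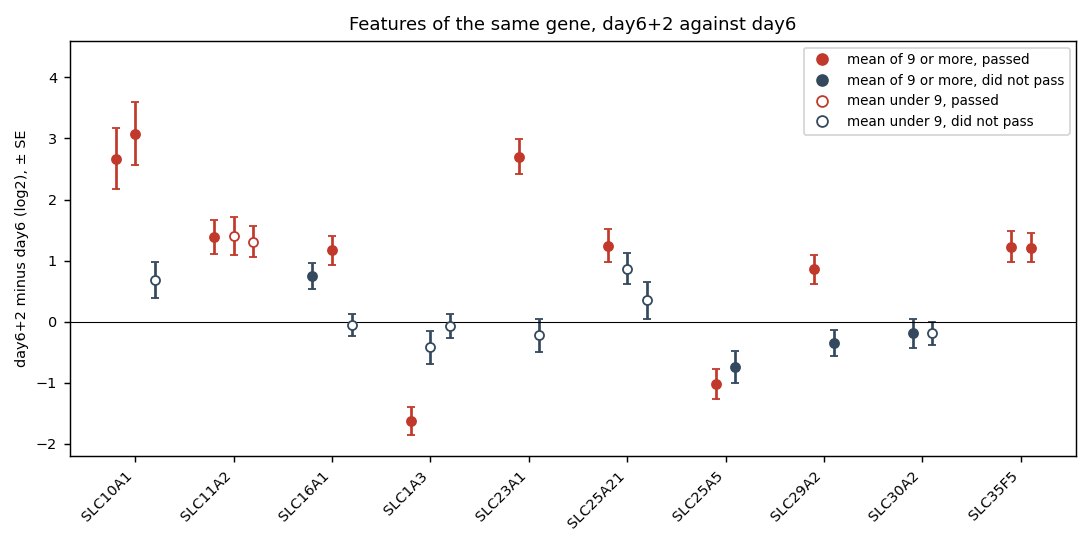
Difference between day6+2 and day6 (log2, vertical axis, ± SE) for all kept features of the 10 genes that passed somewhere and have several features; filled points have a mean of 9 log2 units or more, open points are dimmer, and red marks an adjusted p under 0.05. All 3 SLC11A2 and both SLC35F5 features rose, whereas no dimmer feature of SLC23A1 or SLC1A3 passed.

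Day6 and day6+2 shared slides 1 and 4. For SLC23A1 the differences within these slides were 2.72 and 2.67, for SLC44A4 2.19 and 2.20, for SLC10A1 feature 2 3.25 and 2.76, and for SLC1A3 -1.81 and -1.23. With slide as a block, SLC23A1 alone passed in day6+1 against day6 (2.62 ± 0.45, adjusted p = 0.029). Markers of other cell types moved in the same comparison. The mean of the 10 trophectoderm markers ran from 12.86 to 12.95 over the day6+2 arrays, 12.62 to 12.66 over day6+1 and 11.65 to 12.12 over day6. In day6+2, where 3.43% of all features and 8.81% of those of the carriers' brightness passed, 4 of the 10 rose (CDX2, KRT19, IFNT and PTGS2). Of 5 epiblast markers NANOG rose and POU5F1 and DPPA3 fell, and of 6 hypoblast markers 1, PDGFRA, fell. In day6+1, where 1.21% of all features passed, the same 4 trophectoderm markers rose, with NANOG and the hypoblast marker HNF4A. PTGS2, HNF4A and PDGFRA each had 3 kept features and DPPA3 had 2, of which only the brightest was used. The mean of the fibroblast and kidney epithelial list ran from 8.35 to 8.52 in day6+2 and from 8.03 to 8.30 in day6, and none of its 7 measured genes passed. The part of these shifts in the carrier differences was not tested.

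A list of 35 further genes held partners of the carriers, enzymes and stores of their substrates, and regulators of nutrient and metal sensing, none of them a solute carrier, and 30 were measured. For each gene of this list and of the marker lists only the brightest kept feature was used. LDHA and FTH1 each had 2 kept features. In day6+2 against day6, where 3.43% of all features and 8.81% of those of the carriers' brightness passed, 3 rose and 1 fell. LDHA, which turns pyruvate into lactate, rose by 1.07 ± 0.24 (adjusted p = 0.0112), the iron store subunit FTH1 by 0.81 ± 0.17 (adjusted p = 0.00682) and the carbonic anhydrase CA4 by 1.03 ± 0.22 (adjusted p = 0.00717). TFRC, the transferrin receptor that brings iron into cells, fell by 1.15 ± 0.31 (adjusted p = 0.038). LDHA, FTH1 and CA4 also rose in day6+1, by 0.98 ± 0.24, 0.78 ± 0.17 and 0.95 ± 0.22. There 1.21% of all features and 3.43% of those of the carriers' brightness passed. BSG, the chaperone of SLC16A1, differed by 0.04 ± 0.16 in day6+2.

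Between the first and the second extra day, day6+2 against day6+1, no carrier feature passed in limma, as no feature did over the whole array (0%), and 8 of the 108 (7.41%) had an unadjusted p under 0.05, against 5.27% of features of the same brightness. The smallest p were those of SLC1A3 (-0.64) and SLC16A1 feature 2 (0.65). The groups overlapped in both, at 11.81 in day6+1 and 12.03 in day6+2 for SLC1A3 and at 11.22 and 11.21 for SLC16A1 feature 2. SLC10A1 feature 2 (1.27) and SLC41A2 (0.40) followed, without overlap. For cavities formed at day 7 and 1 more day in culture, day7+1 against day7, no carrier passed, against 0.015% of all features. Day7+1 shared no slide with day7. An unadjusted p under 0.05 was found for 14 of the 108 (13.0%), near the 12.1% of features of the same brightness. The smallest p belonged to SLC35F5 feature 2 (0.80 ± 0.24, adjusted p = 0.419) and SLC41A2 (0.51, adjusted p = 0.496), with no overlap between the groups in either.

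Whether the extra day differed between day-7 and day-6 cavities was tested as an interaction. No carrier passed, against 0.00499% of all features. The day7+1 and day7 arrays that enter this test shared no slide. Of the 108, 17 (15.7%) had an unadjusted p under 0.05, against 12.0% of features of the same brightness. SLC23A1 had an interaction of -1.73 ± 0.41 (adjusted p = 0.154) and SLC44A4 one of -1.30 ± 0.41 (adjusted p = 0.398). For SLC23A1 the day7 arrays already lay between 10.04 and 10.49, against 8.08 to 8.83 in day6.

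Among embryos collected as the cavity formed, SLC23A1 was the 1 carrier that passed in day7 against day6 (0.267% of all features passed, and 0.906% of those of the same brightness). An unadjusted p under 0.05 was found for 28 of the 108 (25.9%) and for 18.8% of features of the same brightness. Day7 shared no slide with day6, and with slide as a block the difference of SLC23A1 was 2.16 ± 0.51 and did not pass (adjusted p = 0.231). The markers KRT19 and NANOG rose in the same comparison. In day8 against day6, 4 carriers passed, SLC23A1 and SLC44A4 up and SLC36A4 and SLC30A2 down. That is 3.70% of the 108, against 1.46% of all features and 3.82% of those of the same brightness. With each array centred on its median only the 2 that rose passed. Without day6 replicate 1, day6 replicate 2 or day8 replicate 1, 1 carrier passed in each case, and 2 passed without day8 replicate 2. Day8 shared no slide with day6, and with slide as a block none passed: the differences were 1.97 ± 0.51 for SLC23A1 (adjusted p = 0.29), 1.62 ± 0.42 for SLC44A4, -0.76 ± 0.33 for SLC36A4 and -1.24 ± 0.39 for SLC30A2. Beside these carriers KRT19, IFNT, PTGS2 and NANOG rose in day8 and the hypoblast marker GATA4 fell by 2.47 ± 0.54 (adjusted p = 0.0257). The mean of the trophectoderm list ran from 12.49 to 12.71 in day8 and that of the hypoblast list from 10.62 to 10.99, against 11.22 to 11.49 for the latter in day6, and the part of these shifts was not tested.

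Embryos of the same collection day but different cavity day were also compared. In day7 against day6+1 no carrier passed (0% of all features), and 9 of the 108 (8.33%) had an unadjusted p under 0.05, near the 8.26% of features of the same brightness. The smallest p belonged to SLC44A4 (-0.86, adjusted p = 0.899), whose groups overlapped, and to SLC1A3 (0.67, adjusted p = 0.899), whose groups did not. In day8 against day6+2, SLC1A3 was higher by 1.00 ± 0.23 (adjusted p = 0.0482) and was the 1 carrier past the threshold, against 0.551% of all features. Day8 shared no slide with day6+2. The SLC1A3 call was lost with slide as a fixed or random block and on leaving out any 1 of the 6 arrays. GATA4 differed by -2.54 ± 0.54 (adjusted p = 0.0401) in the same comparison. SLC30A2 followed at -0.94 ± 0.24 (adjusted p = 0.0675). The median difference of the 108 features was -0.21, against -0.01 over all features and -0.04 over those of the same brightness. An unadjusted p under 0.05 was found for 30 of the 108 (27.8%) and for 18.2% of features of the same brightness.

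A set of 4 carrier features moved with the first principal component, on which 5 arrays stood apart. Those 5 include the whole of day8, so that for day8 the group and this set of arrays cannot be told apart. SLC27A3, of the fatty acid carrier family, lay between 11.40 and 13.57 on those 5 arrays and between 8.53 and 10.56 on the other 13, with a correlation with the first principal component of 0.946. SLC35E3 (0.845) and SLC43A3 (0.833), a purine nucleobase carrier, were also high there. The creatine carrier SLC6A8 (-0.861) was low there, between 10.52 and 10.99 against 11.10 to 12.21. These correlations describe the 18 arrays that made the component, and none of the 4 features passed in any comparison. In SLC27A3, day8 lay above day6 by 2.79 ± 0.79 (adjusted p = 0.0764) and above day6+2 by 3.04 ± 0.79 (adjusted p = 0.0757), with no overlap. Over the whole array 401 features had a correlation above 0.8 and 85 one below -0.8.

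**Figure D5:**
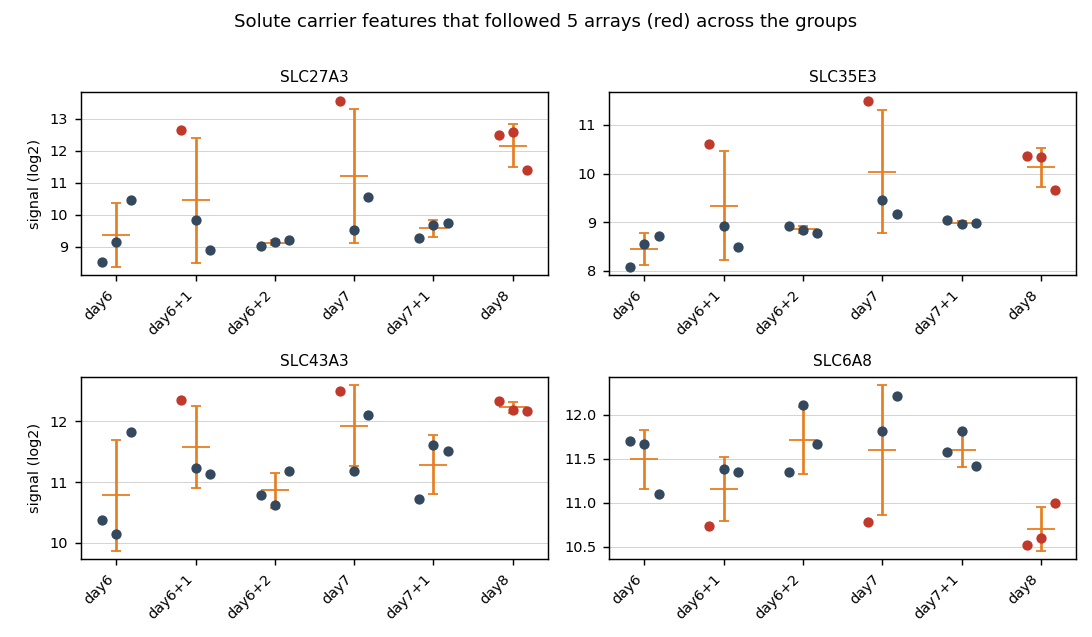
Signals (log2, vertical axes) of SLC27A3, SLC35E3, SLC43A3 and SLC6A8 on each of the 3 arrays of the 6 groups, with group mean and SD in orange. Red points are replicate 1 of day6+1, replicate 1 of day7 and all of day8, which stood apart from the other 13 (dark points) on the first principal component.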

How the data were processed

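One-colour Agilent EmbryoGENE arrays of 18 bovine blastocyst samples were scanned, and the scanner files deposited by the authors hold spot intensity and local background, unnormalized. The authors' deposited value table holds log2 values of background-subtracted, quantile-normalized signals, as its match to the scanner files showed (r = 1, largest median difference 0.00152, column medians 7.76 to 7.77). R 3.2.4 and limma 3.28.5 are named for 9 samples in the submitters' processing notes. The table was used to choose the features and as an alternative.

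Here intensities were corrected with normexp (offset 50), quantile-normalized and log2-transformed in limma 3.58.1 (R 4.3.3). A feature was kept if above the 95th percentile of the negative controls on at least 3 arrays (40086 of 43794, 91.5%). One limma model with 6 group means over all 18 arrays gave every comparison, with Benjamini-Hochberg adjustment at 0.05. This fit was tried on simulated data for a single comparison. The background correction, normalization and log transformation were not tested on simulated data. Of the features, 21790 carry 1 gene symbol and 22004 none, by a platform annotation that can be old. All 93 symbols were in the RefSeq gene table or its synonyms. Probe sequences and coordinates were not used here.

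The 108 features and the gene lists were chosen with earlier results of these data known. Substrate groups follow SLC families with exceptions by gene (SLC43A3, SLC5A6 and SLC6A8 among the 108), and SLC4A1AP, SLC7A6OS, SLC9A3R1 and SLC6A4 were reassigned after the files were read. Genes were named by rule: every feature past a test, and array values for the 4 smallest p per comparison (2 where under 2 passed), the 5 brightest features and a panel of known nutrient carriers; other array values were added after they were seen. Slides were read from the scanner files' names. Same-numbered replicates deviated together in every pair (r over 0.1) only in day6+2 against day6+1 (0.165, 0.111 and 0.234), a hint from the data and not from the labels, and there the replicate block gave 0 features, as without it. Alternatives were the deposited table, other scalings, no filter on dim features, and only the brightest feature of each gene. Others were slide or replicate as a block, the compared arrays alone, the arrays of a single slide, and leaving out each array.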

Additional observations from a re-analysis of the deposited data

How the results depend on the processing

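Over the alternatives tried no result of a named feature that passed changed direction. The groups overlapped in none of these results, so leaving out arrays or taking a single slide could not have reversed them. Of the values of these results under the alternatives, 364 were counted as unchanged and 75 lost the threshold. The 364 include untested single-slide values, counted as unchanged where they moved by less than the spread between replicates. The other 6 were untested single-slide values that moved by more than that spread. Leaving out each array in turn gave 2 to 4 features in day6+1 against day6 (5 with all arrays; 2 without day6 replicate 1 or day6+1 replicate 2, 3 without day6 replicate 2 or 3), 10 to 15 in day6+2 against day6 (16; 10 without day6+2 replicate 2), 1 to 2 in day7 against day6 (1; 2 without day7 replicate 3), 1 to 6 in day8 against day6 (4), 0 in every case in day8 against day6+2 (1), and 4 to 13 for the F test (9; 4 without day6 replicate 2). The other 4 comparisons gave 0 throughout. The F test gave 14 without day6+1 replicate 1 and day7 replicate 1 together. In day8 against day6+2 the deposited table, median centring, slide as a block and slide as a random block each gave 0, and scaling to the 75th percentile gave 2. Fitting only the arrays compared gave 7 there and 9 in day8 against day6, where median centring gave 2. Slide as a block gave 1 in day6+1 against day6 and 0 in day7 and in day8 against day6. The replicate number as a block gave 10 in day6+1 against day6, 8 in day8 against day6, 3 in day8 against day6+2 and 14 for the F test. The labels do not say that a number marks a shared culture, and the cause of these changes was not tested. With 3 arrays a group and features near the top of the scanner range, small differences may not be detectable.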
